A study of Mus musculus with 4 samples.

Results

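Transcripts of the growth hormone and insulin-like growth factor (IGF) axis were followed in mouse liver during and after feeding of the CDE diet (choline-deficient and supplemented with ethionine), a hepatocyte-damaging regimen. The set was the 10 genes Ghr, Stat5a, Stat5b, Socs2, Igf1, Igfals, Igfbp1, Igfbp2, Igfbp3 and Igfbp4, taken by gene name from the 13903 genes of the deposited table, and all 10 were found. The livers came from C57BL/6J mice with floxed OGT, all fed the CDE diet. The OGT-KO label stands for AAV8-TBG-CRE, an adeno-associated virus that expresses Cre recombinase from the hepatocyte-directed TBG promoter, so other liver cells should keep the gene for O-GlcNAc transferase (Ogt). The control label stands for AAV8-TBG-eGFP in its place. Sampling at the end of the diet (no recovery) and 7 days later gives 4 groups. Each is represented by a single library, for which RNA of 3 mice was pooled. Neither the age nor the sex of the mice is stated in the labels.

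In the liver, growth hormone binds its receptor on hepatocytes, and the receptor activates the transcription factors STAT5A and STAT5B. These induce Igf1, the secreted growth factor, and Igfals, the acid-labile subunit that holds IGF1 and IGFBP3 together in a circulating ternary complex. They also induce Socs2 and Cish, feedback inhibitors of the receptor. The IGF-binding proteins carry IGF1 in blood and tissue and limit its access to the IGF1 receptor. Igfbp1 is known as the member that fasting and stress induce and that insulin represses in hepatocytes.

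Values are CPM, that is, the reads of a gene divided by all reads of its library and multiplied by 1000000. The libraries held 19972699 to 22866431 reads on the listed genes. With 1 pooled library per group there was no replicate and no test between conditions, and the intervals given are 95% intervals for counting error alone, which leave out the spread between mice. Ogt, the targeted gene, had 55.3 CPM in the OGT-KO-labelled library and 64.7 in the control library with no recovery, and 77.7 and 55.7 after 7 days. As deposited it therefore went against its label at the later time. The log2 difference of Ogt became -0.93 and -0.20 under median-ratio scaling. Relative to the median gene it was -0.73 and -0.01, and relative to the hepatocyte markers 0.60 and 1.07. Every direction below is a direction between labels. Bulk RNA cannot separate fewer cells of a type from less RNA per cell.

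The lists of cell type markers differed between the labels as well. The 8 hepatocyte markers, Alb among them, were present in all libraries and summed to 78539 and 85249 CPM in the control libraries against 56698 and 67982 in the OGT-KO-labelled libraries (no recovery, then 7 days). They did not move alike. On the log2 scale Alb, the most abundant, was at -0.21 and -0.08, Tat at 0.14 and 0.46, Hnf4a at -1.34 and -0.91, Apoa1 at -1.60 and -1.97 and Apoa2 at -1.70 and -1.63, so a value relative to their mean depends on the markers chosen. The 8 stellate and myofibroblast markers summed to 220 and 148 CPM in control against 2927 and 3520, the 6 macrophage markers to 204 and 76.3 against 818 and 663, the 6 endothelial markers to 176 and 125 against 317 and 231, and the 5 bile duct markers to 53.7 and 69.6 against 1148 and 1457. Single genes made up most of some sums. Spp1 had 41.0 and 52.1 CPM of the bile duct sum in control against 977 and 1245. In the OGT-KO-labelled libraries Col1a1 (875 and 1192 CPM) and Col3a1 (1212 and 1549) together made up most of the stellate sum. All 5 bile duct and all 8 stellate markers were at least 2-fold higher in those libraries at both times. No marker was at 0 reads in any library. The part of these shifts in the results below was not tested, except where a value relative to the hepatocyte markers is given.

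Promoter sequence was examined for the axis genes. RefSeq windows on GRCm38.p6, from 250 bases before to 50 bases after an annotated start, were matched by symbol to 9 of the 10 genes, with Socs2 unmatched. They were searched on both strands for TTCNNNGAA, the spaced palindrome that STAT5 binds, for CAAAACA, the core of the insulin response element of Igfbp1, and for GTAAACA, a FOXO consensus. Of all 32851 windows of this length, 8.30% held the first, 6.28% the second and 3.65% the third. Each of them was found in 1 of the 9 genes. These genes had 15 windows between them, so a count of genes is not on the scale of those shares. Igfbp1 and Igfbp3 are neighbouring genes on chromosome 11 and are shown together with Igfals, since these 3 differed between the labels at both times, and capitals mark the matches. The 2 windows of Ghr held none of the motifs and are not shown.
Igfbp1, chr11:7197537-7197836, plus strand: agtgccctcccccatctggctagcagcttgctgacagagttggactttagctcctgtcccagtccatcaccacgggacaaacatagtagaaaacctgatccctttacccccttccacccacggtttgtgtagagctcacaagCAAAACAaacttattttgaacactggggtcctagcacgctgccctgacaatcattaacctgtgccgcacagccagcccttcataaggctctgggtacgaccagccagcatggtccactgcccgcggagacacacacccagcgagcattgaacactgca
Igfbp3, chr11:7213874-7214173, minus strand: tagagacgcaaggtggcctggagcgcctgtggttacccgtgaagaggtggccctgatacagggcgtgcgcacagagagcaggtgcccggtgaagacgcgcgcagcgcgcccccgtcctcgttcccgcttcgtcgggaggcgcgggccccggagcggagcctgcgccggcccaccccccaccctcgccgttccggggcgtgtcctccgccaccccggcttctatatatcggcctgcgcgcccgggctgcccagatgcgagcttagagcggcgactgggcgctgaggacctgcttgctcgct
Igfals, chr17:24877981-24878280, plus strand: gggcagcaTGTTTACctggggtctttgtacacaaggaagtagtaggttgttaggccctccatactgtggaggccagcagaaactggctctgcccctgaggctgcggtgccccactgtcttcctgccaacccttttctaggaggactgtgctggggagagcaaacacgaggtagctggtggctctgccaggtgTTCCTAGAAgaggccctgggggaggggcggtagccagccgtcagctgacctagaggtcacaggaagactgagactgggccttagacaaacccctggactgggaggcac
The CAAAACA of Igfbp1 began 108 bases before its start. The window of Igfbp3 held none of the 3 motifs. The Igfals window shown, the second of 3 for that gene, held a TTCNNNGAA 58 bases before the start and the reverse complement of GTAAACA 242 bases before it. The first Igfals window also held a TTCNNNGAA, 236 bases before its start. These are matches of letters and not measured binding sites.

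The first comparison asked how the axis differed between the labels at the end of the diet and after recovery. Differences were taken on log2(CPM + 1), on which changes of low genes come out too small, and those of 2-fold or more were called. The comparison covered 8963 genes whose mean over the libraries reached 10 CPM. All 10 axis genes passed this filter. With no recovery, 2 of the 10 were higher in the OGT-KO-labelled library (Igfbp1 and Igfbp3) and 2 were lower (Ghr and Igfals), against 24.4% of all compared genes higher and 5.69% lower. After 7 days the same 4 genes were called in the same directions, against 22.9% and 4.27% of all genes, and against 19.2% and 3.74% called alike at both times. Their directions and calls held with upper-quartile scaling, with median-ratio scaling, relative to the median gene and relative to the hepatocyte markers. The median gene was itself higher in the OGT-KO-labelled libraries, by 0.51 on the log2 scale with no recovery and 0.48 after 7 days, while the median of the 10 axis genes was 0.07 and -0.17. The median gene was at -0.19 and -0.18 with median-ratio scaling. With that scaling 10.4% of genes were higher and 15.4% lower with no recovery, and 11.6% and 11.8% after 7 days. The axis genes then numbered 2 higher and 4 lower at each time.

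**Figure D1:**
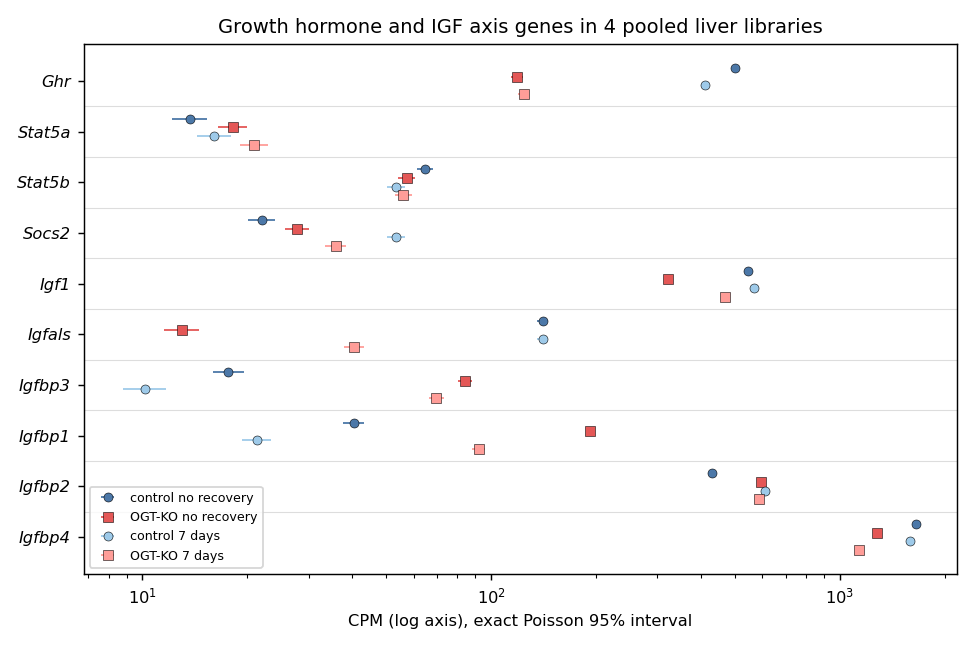
CPM of the 10 axis genes in each pooled library, on a log axis, with exact Poisson 95% intervals for counting error. Ghr and Igfals lie lower in both OGT-KO-labelled libraries (squares) than in both control libraries (circles), and Igfbp1 and Igfbp3 lie higher. Stat5b lies between 53.4 and 64.8 CPM in all 4.

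Ghr encodes the growth hormone receptor, the entry point of the axis. It had 502 CPM in the control library and 119 in the OGT-KO-labelled library with no recovery, and 409.8 and 124 after 7 days. Both OGT-KO-labelled libraries were therefore below both control libraries. Ghr was 4.23-fold lower with no recovery (interval 4.05 to 4.41) and 3.30-fold lower after 7 days (3.16 to 3.45), or -2.07 and -1.72 as differences of log2(CPM + 1). Less the mean difference of the 8 hepatocyte markers, which was -0.82 and -0.60, it stood at -1.25 and -1.12.

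The transcription factors downstream of the receptor differed by less than 2-fold from control. Stat5a had 13.7 CPM in control and 18.1 in the OGT-KO-labelled library with no recovery, and 16.1 and 20.9 after 7 days. Stat5b had 64.8 and 57.3 CPM with no recovery, and 53.4 and 56.0 after 7 days. Neither gene differed by 2-fold between any pair of libraries compared. The 2 genes are close paralogs that lie side by side on chromosome 11, and reads on shared sequence could be split between them in a way that is not stated. Their sum, 78.5 and 75.4 CPM with no recovery and 69.5 and 76.9 after 7 days, differed by -0.06 and 0.14 on the log2 scale. These differences were below those of the median gene, and with median-ratio scaling both genes were lower at both times, Stat5b by 0.88 and 0.61 and Stat5a by 0.29 at each. Less the hepatocyte markers the direction was the opposite, with Stat5a at 1.20 and 0.96 and Stat5b at 0.64 and 0.66.

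Socs2, the feedback inhibitor that growth hormone induces through STAT5, did not keep a direction between the labels as deposited. It had 22.0 CPM in control and 27.8 in the OGT-KO-labelled library with no recovery, and 53.4 and 35.8 after 7 days. The log2 difference of Socs2 was 0.32 at the first time and -0.56 at the second. Its direction depended on the scaling, at -0.37 and -1.23 with median-ratio scaling and at 1.14 and 0.03 less the hepatocyte markers. The control library after 7 days was the highest of the 4.

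Igf1 itself did not reach a 2-fold difference at either time. It had 544 CPM in control and 320.9 in the OGT-KO-labelled library with no recovery, and 569 and 469 after 7 days. The OGT-KO-labelled libraries were thus below both control libraries, with log2 differences of -0.76 and -0.28. With median-ratio scaling the differences were -1.48 and -0.96, and less the hepatocyte markers they were 0.06 and 0.32, so its direction turned with that choice.

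Igfals was the most reduced of the 10 with no recovery, while after 7 days its counting interval overlapped that of Ghr. It had 141 CPM in each control library, 12.9 in the OGT-KO-labelled library with no recovery and 40.5 in that after 7 days. It was 10.9-fold lower with no recovery (interval 9.65 to 12.3) and 3.47-fold lower after 7 days (3.22 to 3.75). Less the hepatocyte markers it stood at -2.53 and -1.17 on the log2 scale. For Ghr, Socs2, Igf1 and Igfals, RefSeq places a long noncoding RNA gene over part of the gene, and whether reads were counted by strand is not stated.

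Igfbp3, the binding protein of the ternary complex, ran the other way. It had 17.6 CPM in control and 84.1 in the OGT-KO-labelled library with no recovery, and 10.2 and 69.7 after 7 days. It was 4.77-fold higher (interval 4.27 to 5.34) and 6.85-fold higher (5.92 to 7.97). In liver Igfbp3 is known from nonparenchymal cells, sinusoidal endothelial and Kupffer cells among them, whereas Igfals and Ghr are hepatocyte transcripts. The endothelial and macrophage sums given above were also higher in these libraries, as were the stellate and bile duct sums. Their part in the level of Igfbp3 was not tested. Within a library, the ratio of Igfals to Igfbp3 CPM, which no scaling can alter, was 7.98 and 13.8 in control against 0.154 and 0.581 in the OGT-KO-labelled libraries.

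Igfbp1, a short-lived secreted binding protein made by hepatocytes, was higher as well. It had 40.4 CPM in control and 192 in the OGT-KO-labelled library with no recovery, and 21.3 and 92.1 after 7 days. It was 4.76-fold higher (interval 4.43 to 5.13) and 4.33-fold higher (3.90 to 4.82). Both OGT-KO-labelled libraries lay above both control libraries. The ratio of Igfbp1 to its neighbour Igfbp3 was 2.29 in each library with no recovery, and 2.09 in control and 1.32 in the OGT-KO-labelled library after 7 days. The ratio of Igf1 to Igfbp1 was 13.5 and 26.7 in control against 1.67 and 5.09.

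Igfbp2 and Igfbp4, the most abundant of the 4 binding proteins in the set, differed by less than 2-fold as deposited. Igfbp2 had 430.3 CPM in control and 596 in the OGT-KO-labelled library with no recovery, and 611 and 588 after 7 days. The log2 difference of Igfbp2, 0.47 and -0.05, was -0.25 and -0.74 with median-ratio scaling, and 1.29 and 0.54 less the hepatocyte markers. Igfbp4 had 1657 and 1277 CPM with no recovery, and 1594 and 1137 after 7 days, so both OGT-KO-labelled libraries were below both control libraries. On the log2 scale it differed by -0.38 and -0.49, about -1.10 and -1.17 with median-ratio scaling, and 0.44 and 0.11 less the hepatocyte markers. The 4 Igfbp genes of the set summed to 2145 CPM in control and 2150 in the OGT-KO-labelled library with no recovery, and to 2236 and 1887 after 7 days. Of the sum with no recovery Igfbp1 made up 1.88% in control and 8.94% in the OGT-KO-labelled library, and Igfbp4 77.2% and 59.4%. After 7 days Igfbp1 made up 0.952% and 4.88%, and Igfbp4 71.3% and 60.2%.

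**Figure D2:**
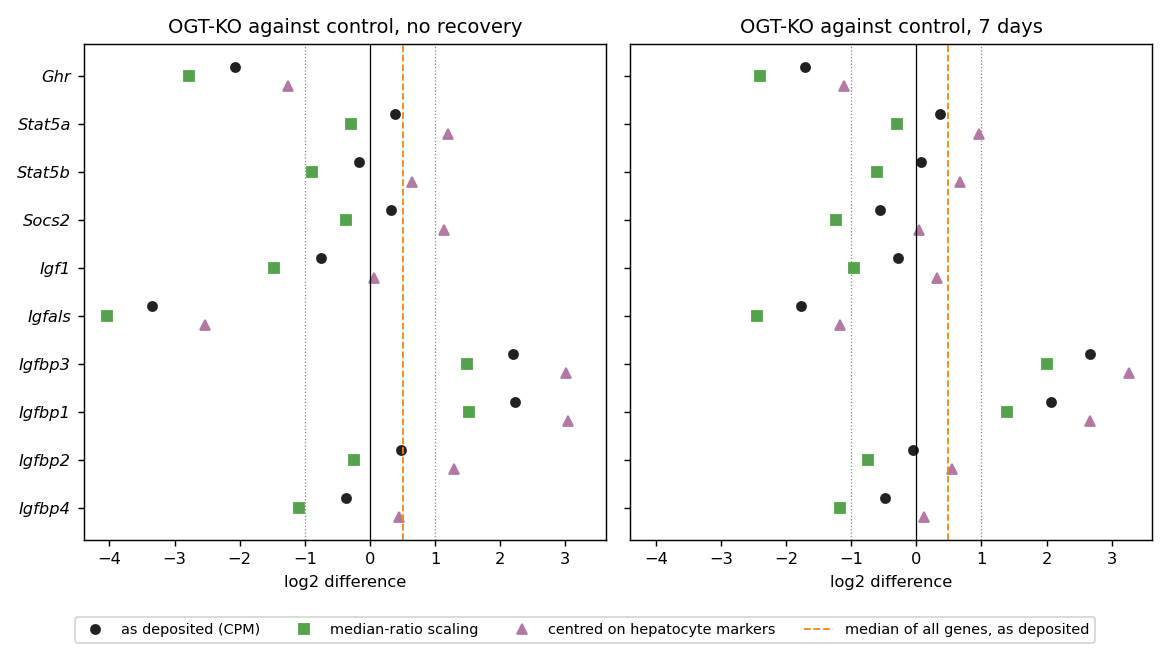
Log2 difference of each axis gene between the OGT-KO-labelled libraries and control, at each time, under 3 scalings. Dotted lines mark 2-fold and the dashed line the median of all compared genes as deposited. Ghr and Igfals stay lower and Igfbp1 and Igfbp3 higher by at least 2-fold under all 3, whereas Igf1, Igfbp4, Stat5a and Igfbp2 with no recovery, among others, cross zero between scalings.

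To compare levels between genes, CPM was divided by the length in kilobases of the merged exons (GENCODE M21). That length takes in the exons of all annotated transcripts, whichever of them the liver makes. The order therefore depends on the annotation as well as on counting error. In the control library with no recovery the order was Igfbp4 at 375 CPM per kilobase, Igfbp2 at 233, Ghr at 55.5, Igf1 at 54.9, Igfals at 44.4, Igfbp1 at 26.5, Stat5b at 11.7, Igfbp3 at 5.64, Socs2 at 2.30 and Stat5a at 1.92. The counting intervals of Ghr and Igf1 overlapped, as did those of Socs2 and Stat5a. In the OGT-KO-labelled library with no recovery, Igfbp2 (323) and Igfbp4 (289) exchanged places, Igfbp1 (126) was the third and Igfbp3 (26.9) the fifth, and Ghr (13.1) and Igfals (4.09) were in the sixth and eighth places. Igf1, at 32.4 CPM per kilobase, stayed in the fourth place.

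The other genes of the pathway were taken as 35 genes in 3 lists, of which 33 were in the table and 22 passed the filter. The filter keeps some low genes only through the group where they are high. With no recovery 6 of the 22 were higher in the OGT-KO-labelled library and 2 lower, and after 7 days 6 were higher and 1 lower. This compares with 24.4% higher and 5.69% lower over all compared genes with no recovery, and 22.9% and 4.27% after 7 days, and the share of 6 in 22 is near that background. The median difference of the 22 was 0.69 and 0.59, against 0.51 and 0.48 over all compared genes.

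Among receptor signalling genes, 13 of 15 passed the filter. Onecut1, a hepatocyte transcription factor that growth hormone regulates, had 40.9 and 50.4 CPM in control against 11.2 and 16.0, and was lower at both times by 1.78 and 1.59 on the log2 scale. Cish, the closest relative of Socs2 in the pathway, had 56.5 and 57.1 CPM in control against 19.8 and 32.8, a difference of -1.47 that passed 2-fold with no recovery and of -0.78 that did not after 7 days. Less the hepatocyte markers, Onecut1 was at -0.962 and -0.995 and Cish at -0.65 and -0.18. Ptpn6, a phosphatase that is most abundant in blood cells, was higher by 1.07 and 1.28, and by 0.37 and 0.62 with median-ratio scaling. Jak2, the kinase bound to the receptor, had 15.1 and 14.4 CPM in control against 28.9 and 24.2, under 2-fold at each time. Jak2 and Insr were added after their values were seen.

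Of the IGF ligand and receptor genes, Igf2r and Grb10 were called at both times. Igf2r, the receptor that clears IGF2, had 64.2 and 54.3 CPM in control against 178 and 208, higher by 1.46 and 1.92 on the log2 scale. Grb10, an adaptor that restrains the IGF1 and insulin receptors, had 7.29 and 6.31 CPM against 26.8 and 56.8. Grb10 passed the filter only through its level in the OGT-KO-labelled libraries. Insr, the insulin receptor, had 104 and 108 CPM in control against 113 and 105, a difference of 0.12 and -0.04. Among IGF-binding proteins and their regulators, Igfbp5, Igfbp7 and Htra1 passed the filter, Htra1 only through its level in the OGT-KO-labelled libraries. Igfbp7, a matrix-associated relative of the binding proteins, had 67.0 and 48.6 CPM against 424 and 467. Igfbp5, the neighbour of Igfbp2 on chromosome 1, had 13.8 and 13.3 against 49.0 and 36.4, and Htra1, a secreted protease, had 2.40 and 1.80 against 14.4 and 22.5. The stellate and myofibroblast sum was also higher in these libraries, and its part was not tested.

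Igf1r, the receptor for IGF1, fell just under the filter and was chosen for mention after its values were seen. It had 2.31 and 1.65 CPM in control against 16.7 and 18.3 in the OGT-KO-labelled libraries. Igf2, the fetal ligand, had 0 reads in both control libraries, 10 reads (0.437 CPM) in the OGT-KO-labelled library with no recovery and 66 reads (2.92 CPM) in that after 7 days. Against a floor of 3 reads in the control library, Igf2 was at least 3.10-fold higher with no recovery and at least 19.5-fold higher after 7 days.

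**Figure D3:**
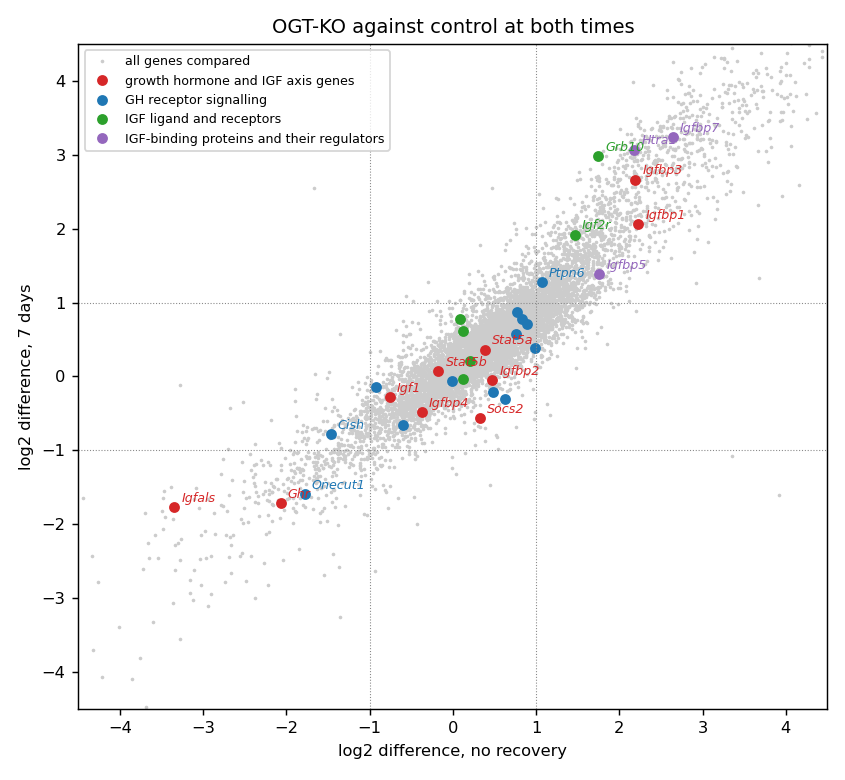
Log2 difference between the OGT-KO-labelled libraries and control with no recovery (x axis) and after 7 days (y axis), for all 8963 compared genes in grey, of which 95 lie outside the axes, and for the axis and pathway lists in color. Ghr, Igfals and Onecut1 lie in the lower left beyond 2-fold (dotted lines) and Igfbp1, Igfbp3, Igfbp5, Igfbp7, Htra1, Grb10, Igf2r and Ptpn6 in the upper right, as deposited. With median-ratio scaling Ptpn6 lies within 2-fold at both times, and Igf2r with no recovery and Igfbp5 after 7 days do too.

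Liver genes whose male-biased level depends on pulsatile growth hormone and STAT5B were followed as well. Of 15 listed, all passed the filter and 14 were lower at each time, with a median difference of -4.14 and -3.71. The 2 genes at 0 reads with no recovery, Mup1 and Mup12, lie below that median, so setting them to their bound cannot move it. Over all compared genes 5.69% and 4.27% were lower and the median difference was 0.51 and 0.48. The exceptions were Cyp2d9 with no recovery, at -0.96, and Mup20 after 7 days, also at -0.96. Hsd3b5, a steroid dehydrogenase, had 206 and 253 CPM in control against 0.175 and 0.133. Cyp7b1, an oxysterol hydroxylase, had 381 and 372 CPM against 38.4 and 30.7. Mup1, Mup7, Mup11 and Mup12 belong to a cluster of near-identical copies and are uncertain singly. Mup1, Mup7, Mup11, Mup12, Hsd3b5 and Ugt2b38 passed the filter only through the control libraries, so their direction was tied to their passing. Since all 15 passed the filter, removing it cannot change the count of 14 at each time. A mean of at least 50 CPM left 13 lower at each time. It still keeps Mup1, Mup7, Mup11, Mup12 and Hsd3b5, so neither setting undoes that tie for them. The list was chosen with earlier results of these data known, so its share of lower genes is a description. The sex of the mice in each pool is not stated, and whether the pools differed in sex was not tested.

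The second comparison asked what changed over 7 days of recovery within each label. These differences share libraries with those above. In control, 1 of the 10 axis genes was higher after recovery and none was lower at 2-fold, against 0.245% and 0.96% of all genes. In the OGT-KO-labelled libraries, 1 was higher and 1 lower, against 1.04% and 0.435%. With median-ratio scaling 1 was higher and none lower under each label, against 0.29% and 0.926% of genes in control and 1.28% and 0.324% in the OGT-KO-labelled libraries.

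Socs2 was the gene called in control, going from 22.0 to 53.4 CPM, 2.43-fold higher (interval 2.18 to 2.71), or 1.24 on the log2 scale and 0.99 with a pseudocount of 10 in place of 1. In the OGT-KO-labelled libraries it went from 27.8 to 35.8, under 2-fold. Stat5a, Stat5b and Ghr differed by at most 0.29 on the log2 scale over the same interval in control. Igf1 and Igfals in control were level, at 0.06 and -0.00.

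Igfals was the gene called higher in the OGT-KO-labelled libraries, going from 12.9 to 40.5 CPM, 3.13-fold higher (interval 2.74 to 3.58). It stayed below the 141 CPM of both control libraries. Igf1 in the same libraries went from 320.9 to 469 CPM, a difference of 0.54 that did not reach 2-fold. Ghr went from 119 to 124 CPM. The ratio of Igf1 to Igfals was 24.8 and then 11.6 in the OGT-KO-labelled libraries, and 3.87 and 4.04 in control.

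Igfbp1 was lower after recovery under both labels. In the OGT-KO-labelled libraries it went from 192 to 92.1 CPM, 2.09-fold lower (interval 1.98 to 2.20), at the edge of the call, and with median-ratio scaling the difference was -0.98. In control it went from 40.4 to 21.3 CPM, a difference of -0.89. The difference between the labels changed by -0.16 between the times, with a counting interval of -0.34 to 0.02. Igfbp3 went from 17.6 to 10.2 CPM in control and from 84.1 to 69.7 in the OGT-KO-labelled libraries, under 2-fold in each.

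**Figure D4:**
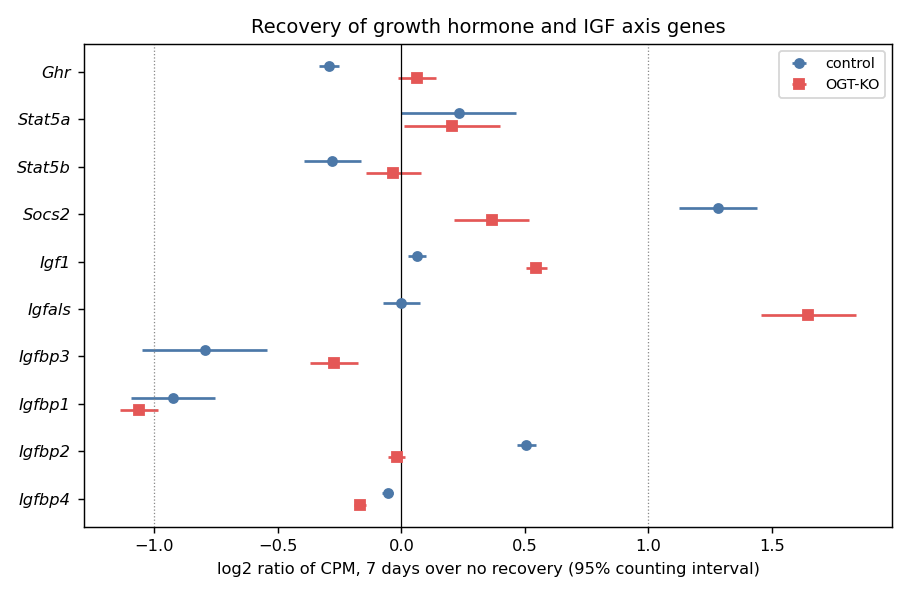
Log2 ratio of CPM after 7 days over no recovery for each axis gene, in control (circles) and in the OGT-KO-labelled libraries (squares), with 95% counting intervals and dotted lines at 2-fold. Socs2 in control and Igfals in the OGT-KO-labelled libraries lie above 2-fold, and Igfbp1 lies to the left of zero under both labels.

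Genes with the most similar pattern were sought among the 3220 genes averaging 50 CPM or more, by the Euclidean distance of log2(CPM + 1) over the 4 libraries after centring each gene on its own mean. Over only 4 libraries this is a description. Nearest to Igf1 were Suclg1 (distance 0.021), a subunit of a citric acid cycle enzyme, Ehhadh (0.083), a peroxisomal enzyme of fatty acid oxidation, and Gstt1 (0.096), a glutathione transferase. Nearest to Socs2 were Id2 (0.21), Il1r1 (0.28) and Steap4 (0.40). Nearest to Igfbp1 were Trp53inp1 (0.34), a p53-induced gene, Jun (0.44) and Cd5l (0.45).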

How the data were processed

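RNA of the livers of 3 mice was pooled in equal parts for each of 4 libraries and sequenced as mRNA. The authors deposited 1 table of CPM for 13903 genes. Its name speaks of DESeq2 normalization, but each column sums to 1000000, and 100% of values were whole multiples of the value of 1 read (tolerance 0.01 reads), so whole reads were recovered. The submitters' processing notes name STAR, DESeq2 and GRCm39, with no role, and the gene filter is not given in the sources used here. The promoter table and annotation are on GRCm38 and were matched by symbol or gene ID.

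Genes averaging 10 CPM or more were compared by differences of log2(CPM + 1) and called at 2-fold. CPM received exact Poisson intervals and ratios exact conditional binomial intervals, for counting error only. With 19972699 to 22866431 reads per library, 3 reads correspond to 0.131 to 0.150 CPM. No test across mice was possible with 1 library per group.

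Named genes were the 10 axis genes, pathway genes past 2-fold in the same direction at both times, close relatives of an axis gene, the nearest genes to Igf1, Socs2 and Igfbp1, and Ogt. The axis genes and lists were chosen with earlier results of these data known. Alternatives were pseudocounts of 0.1 and 10, no filter or a mean of at least 50, upper-quartile and median-ratio scaling, a 4-fold threshold and an exact binomial test on recovered reads with Benjamini-Hochberg adjustment. Centring on the median gene and on 8 hepatocyte markers was added after the data were seen. Steps were tested on simulated reads with counting error only and with as many genes raised as lowered. Spread between mice and a shift of the median gene were not simulated. Python 3.11.15 was used with numpy 2.4.6, pandas 2.3.3 and scipy 1.17.1.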

Additional observations from a re-analysis of the deposited data

Results flagged for a closer look

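Between no recovery and 7 days, or between the labels, 5 of the 10 axis genes had differences of opposite sign in the single pairs of libraries available, 3 of them between the labels and 3 with recovery. Of all 8963 compared genes, 9.22% had opposite signs between the labels and 44.9% with recovery. The counting interval of 1 of the paired differences spans 0 for Stat5b after 7 days, for Ghr and Igfbp2 with recovery in the OGT-KO-labelled libraries and for Igfals with recovery in control. None of these differences was tested, since each rests on 1 library per group. Values are log2(CPM + 1) differences, and the change between them is that after 7 days less that with no recovery.

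Between the labels, Socs2 stood at 0.32 and then, after 7 days, at -0.56, a change of -0.89. Igfbp2 was at 0.47 and -0.05, a change of -0.52, and Stat5b at -0.18 and 0.07, a change of 0.24. With recovery, Igfals was at -0.00 in control and 1.57 in the OGT-KO-labelled libraries, which differ by 1.57. Ghr was at -0.29 and 0.06, which differ by 0.36. Igfbp2 was at 0.50 and -0.02, the same -0.52 seen from the other side, since both contrasts use the same 4 libraries. Over all 8963 compared genes the change between times had a median of 0.03, and the middle 95% lay between -0.65 and 0.95, so Igfals and Socs2 lie outside that range and Igfbp2, Stat5b and Ghr within it.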

How the results depend on the processing

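No paired analysis was possible because each group has 1 library and the labels give no replicate number. For the same reason no replicate could be left out. The depth, 19972699 reads or more per library, limits only the low genes. Unless it follows from the setting itself, what caused a shift was not tested. Of 160 recomputed counts of listed genes, 125 were within 1.5 times the reported count, and of 240 recomputed differences of axis genes 119 were within their counting interval and 121 moved beyond it, and no called one changed sign.

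For the axis genes, a pseudocount of 10 left 0 higher in control with recovery and 0 lower in the OGT-KO-labelled libraries. A mean of at least 50 left 1 higher between the labels at each time, since Igfbp3 fell under it, and 0 higher in control with recovery. Median-ratio scaling gave 4 lower at each time, adding Igf1 and Igfbp4 with no recovery and Socs2 and Igfbp4 after 7 days, and 0 lower with recovery in the OGT-KO-labelled libraries. At 4-fold, 0 were lower after 7 days, 0 higher with recovery in control, and 0 higher and 0 lower with recovery in the OGT-KO-labelled libraries. Centred on the hepatocyte markers, 5 were higher with no recovery.

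For the pathway lists, reported as 6 higher and 2 lower with no recovery and 6 and 1 after 7 days, no filter gave 12 and 15 higher, and a mean of at least 50 gave 2 higher and 0 lower at each time. Upper-quartile scaling, median-ratio scaling and centring on the median gene each gave 4 lower with no recovery and 3 after 7 days. At 4-fold 2 and 3 were higher and 0 lower. Centred on the hepatocyte markers, 14 and 12 were higher and 0 lower. The female-biased list went from 1 higher at each time to 5 and 8 with no filter.

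The exact binomial test, which compares libraries and not conditions, had an adjusted p under 0.05 for 8011 and 7899 of 8963 genes between the labels, for 10 and 9 of the axis genes, and removed no 2-fold call. Over all genes, 2185 and 2050 were higher and 510 and 383 lower as deposited, and 935 and 1037 higher and 1381 and 1055 lower with median-ratio scaling.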

Other observations

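Genes whose female-biased liver level depends on the growth hormone pattern were mostly low. Of 14 listed, 10 were in the table and 1 passed the filter, so the list is given by single genes. That gene, Cyp2a4, a cytochrome P450 with a near-identical relative in Cyp2a5, had 8.94 and 9.66 CPM in control against 963 and 193 in the OGT-KO-labelled libraries. Cyp2a4 passed the filter only through the OGT-KO-labelled libraries. Cyp2b9 had 0.0470 and 0.250 CPM in control against 5.77 and 9.17. Cyp17a1, a steroid hydroxylase, had 3.95 and 4.36 CPM in control against 3.94 and 2.53, and Acot3, a thioesterase, 1.18 and 1.10 against 0.131 and 2.79. As for the male-biased list, the sex of the pooled mice is not stated, and a difference in sex between the pools was not tested.

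Some regulators of IGF availability were detected at a low level. Stc1, an inhibitor of the protease PAPP-A that cleaves IGFBP4, had 0 reads in both control libraries against 55 reads with no recovery and 32 after 7 days in the OGT-KO-labelled libraries. Against a floor of 3 reads in the control library it was at least 9.44-fold higher after 7 days. Igf2bp3, an oncofetal protein that binds Igf2 mRNA, had 0.564 and 0.601 CPM in control against 5.07 and 2.61. Prlr, the prolactin receptor, went from 23.2 to 48.2 CPM with recovery in the OGT-KO-labelled libraries, a difference of 1.02, and from 44.8 to 53.2 in control, a difference of 0.24. These genes were chosen after their values were seen.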
